A study of Homo sapiens
Rattus norvegicus and Homo sapiens with 10 samples.

Results

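The BCL2 family apoptosis regulators measured here are 10 human genes, taken by symbol from a deposited table of 62754 genes: BCL2, BCL2L1, MCL1, BAX, BAK1, BID, BBC3, PMAIP1, BCL2L11 and XIAP. All 10 symbols were found, each as 1 row. The libraries came from U251N, an established human glioblastoma line, implanted in the brains of adult female athymic (RNU/RNU) rats, whose T cell deficiency allows a human graft to grow. The 3 recurrent tumours had grown back following ablation by heat from a laser probe (laser interstitial thermal therapy, LITT), here guided by diffusion-weighted imaging, and the 3 primary tumours were never ablated. The 3 controls are brains labelled tumour-free, of which replicate 1 was a failed graft and replicates 2 and 3 were procedural controls, and 1 library came from untreated U251N cells in culture. All tumours descend from 1 line, and no label states whether every library is a separate animal, so the p-values measure the spread between these samples.

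Mitochondrial apoptosis is decided by contacts between proteins of the BCL2 family. Pro-survival members (BCL2, BCL-XL from BCL2L1, and MCL1) bind and restrain the effectors BAX and BAK, which otherwise perforate the outer mitochondrial membrane and release cytochrome c. BH3-only members, BID, PUMA (BBC3), NOXA (PMAIP1) and BIM (BCL2L11), are raised or activated by stress and bind the pro-survival proteins, the effectors, or both, through a short helix called the BH3 domain. XIAP is not a BCL2 family protein: it inhibits caspases downstream of that release, and it belongs to the inhibitor of apoptosis proteins (IAPs). In glioblastoma cells BCL-XL and MCL1 are well known barriers to apoptosis.

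The stretch that unites the family is shown here in the coding strand. Its core occurs in pro-survival, effector and BH3-only members alike, so it does not tell these roles apart. Each sequence is 42 bases of the principal GENCODE 29 transcript (GRCh38), 5′ to 3′, and the capitals mark the codons of the leucine, of the small residue and of the aspartate that make up the BH3 core. The search asked for a leucine, any 3 residues, glycine or alanine, and aspartate in the translated coding sequence. It matched exactly once in each of 9 members and not in XIAP, while the same pattern occurs in 24.5% of 19920 principal coding sequences, so that a match alone does not mark a BH3 domain.
BCL2: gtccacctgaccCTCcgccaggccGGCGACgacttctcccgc
BCL2L1: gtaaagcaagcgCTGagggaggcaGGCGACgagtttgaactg
MCL1: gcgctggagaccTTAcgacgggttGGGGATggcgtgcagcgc
BAX: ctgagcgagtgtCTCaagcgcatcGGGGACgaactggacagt
BAK1: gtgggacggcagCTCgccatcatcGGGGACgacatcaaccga
BID: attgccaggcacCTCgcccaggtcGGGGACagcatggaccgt
BBC3: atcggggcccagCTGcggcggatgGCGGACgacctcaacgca
PMAIP1: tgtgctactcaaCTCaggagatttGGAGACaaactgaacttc
BCL2L11: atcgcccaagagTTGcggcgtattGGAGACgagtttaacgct
BBC3 is the member with an alanine codon in the position where the other 8 have glycine.

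Total estimated counts were 20321590 to 25299612 in recurrent tumours, 25316552 to 39714714 in primary tumours, 1358753 to 4158124 in controls and 65058642 in the culture. Graft reads made up 29.44% to 42.67% of the reads in recurrent tumours and 42.52% to 64.4% in primary tumours, per the labels. Primary replicate 2 had an RNA integrity number of 7.8, against 8.1 to 8.9 in the other tumours, and stood apart from the other 5 in several members, as given below. Among the controls, replicates 1 and 2 took 92.63% and 89.76% of their counts from structural small RNAs, against 31.7% in replicate 3. The 8 markers fixed for U251 cells (VIM, NES, CD44, TNC, GFAP, S100B, SOX9 and EGFR) were summed and scaled to CPM (the count scaled to library size) over the counts that are not structural small RNAs. They came to 9903 to 11090 CPM in recurrent and 9897 to 11410 CPM in primary tumours, against 1358, 5667 and 11670 CPM in control replicates 1, 2 and 3. Their raw counts in the controls were 136, 988 and 33153, so control replicates 1 and 2 were shallow but not empty of these markers. Whether these counts came from graft or host RNA was not tested. By these markers control replicate 3 went against its tumour-free label, with 4.9% graft reads against 0.33% and 0.55% in control replicates 1 and 2, and results with controls are given with and without it. All 4 blood markers were at 0 in every library. Summed markers of neurons, oligodendrocytes, microglia and endothelium overlapped between recurrent and primary tumours, and the culture, which has no host cells, also gave counts for each of these 4 lists, from 9.038 CPM of the library total for endothelium to 535.1 CPM for neurons. Over the counts that are not structural small RNAs, neuron markers came to 5151, 2151 and 903.2 CPM in control replicates 1, 2 and 3. In the tumours they came to 858.9 to 1532 CPM. Oligodendrocyte markers came to 3863, 1302 and 240.8 CPM in these controls, against 134.4 to 233.3 CPM in tumours. In control replicate 1 both sums exceeded the 1358 CPM of the U251 markers.

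Per length of transcript, MCL1 was the highest member in the tumours and BCL2 the lowest. On the scale of CPM (scaled by TMM, the trimmed mean of M values, across tumours and culture) per kb of the longest annotated transcript, MCL1 averaged 63.2 ± 7.11 over the 6 tumours (SD, n = 6), PMAIP1 22.5 ± 5.49, BCL2L1 17.985 ± 2.22 and BID 13.6 ± 3.03. BAX followed at 8.67 ± 1.23, XIAP at 8.22 ± 1.71, BAK1 at 5.30 ± 0.914, BCL2L11 at 4.35 ± 1.24, BBC3 at 1.06 ± 0.268 and BCL2 at 0.483 ± 0.127 (SD, n = 6 each). The tumours' ranges did not overlap between MCL1 and PMAIP1, BID and BAX, BCL2L11 and BBC3, or BBC3 and BCL2. They overlapped between all other neighbours in this order: BAX exceeded XIAP in 3 of 6 tumours and BAK1 exceeded BCL2L11 in 3 of 6. With the summed length of all exons in place of the longest transcript, BAX had rank 7 in place of rank 5 and XIAP rank 4 in place of rank 6, and MCL1, PMAIP1 and BCL2L1 stayed at ranks 1, 2 and 3. Transcript lengths come from GENCODE 29 and not from the isoforms in these cells, so close ranks are approximate. Annotated pseudogenes of BAK1 and XIAP and the antisense genes of BCL2L1 and XIAP, 7 loci in all, held at most 4 counts in any library.

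**Figure D1:**
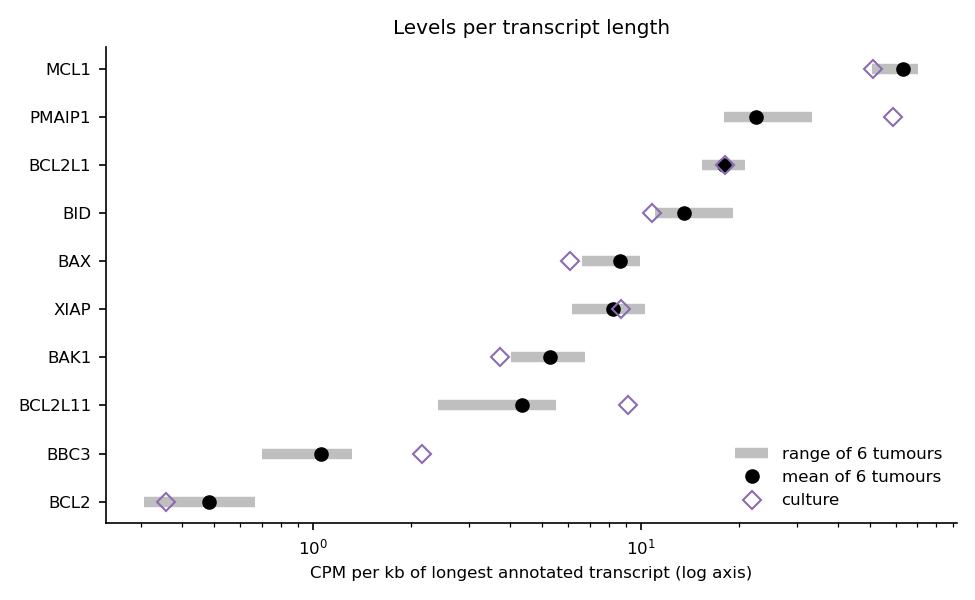
Level of each gene per kb of its longest annotated transcript, on a log axis, with the mean (filled circle) and the range (bar) of 6 tumours and the culture library (open diamond). MCL1 is highest in the tumours at 63.2 and BCL2 lowest at 0.483, and the culture lies above the tumours' range for PMAIP1, BCL2L11 and BBC3.

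The culture comparison asks how levels in brain tumours stand against the same cells in a dish. PMAIP1, BBC3 and BCL2L11, encoding the stress-induced BH3-only proteins NOXA, PUMA and BIM, were at least 2-fold lower in the mean of the tumours than in the culture, which lay above all 6 tumours. BID, whose protein is activated by caspase-8 cleavage, was not among them, and neither were the pro-survival genes, the effectors or XIAP. The culture is 1 library without a replicate, so these are differences between libraries, with no test. The rule of a 2-fold difference with the culture outside the tumours' range took 3 of 10 members as lower in tumours, where it took 10.0% of the 19306 genes kept, and 0 of 10 as higher, where it took 5.79%.

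PMAIP1 had 37.7, 43.7 and 41.0 CPM in recurrent tumours and 40.6, 64.8 and 35.0 CPM in primary tumours, against 114 CPM in the culture. All 6 tumours lay below the culture, by 1.77-fold in primary replicate 2 to 3.27-fold in primary replicate 3, and the log2 ratio of their mean over the culture was -1.39. BCL2L11 had 28.8, 12.6 and 25.6 CPM in recurrent tumours and 28.9, 17.97 and 22.7 CPM in primary tumours, against 47.8 CPM in the culture (log2 ratio -1.07). Recurrent replicate 2 was the lowest tumour for this gene, and without it the ratio was -0.95, just short of 2-fold. BBC3 had 2.42, 2.11 and 2.38 CPM in recurrent tumours and 2.09, 1.38 and 1.29 CPM in primary tumours, against 3.95 CPM in the culture (log2 ratio -1.02). Its counts were small, 32 to 59 in the tumours against 272 in the culture (exact Poisson 95% interval 240.6 to 306.3, counting error only). BBC3 sits at the edge of the 2-fold rule: its log2 ratio was -0.94 without primary replicate 2, -0.93 without primary replicate 3 and -0.75 with 1 CPM added to each side.

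The remaining members stayed within 2-fold of the culture. BAX, BAK1 and BID were above it in all 6 tumours, with log2 ratios of the means of 0.51, 0.50 and 0.33, and tumour means of 11.8 ± 1.67, 11.7 ± 2.02 and 34.0 ± 7.57 CPM (SD, n = 6) against 8.25, 8.27 and 27.0 CPM in the culture. MCL1 (0.30) and BCL2 (0.44) were above it in 5 of 6 tumours, with primary replicate 2 the exception for both. BCL2L1 and XIAP lay on both sides of it, with ratios of -0.0046 and -0.079, 2 of 6 tumours being above the culture for each. The median log2 ratio was 0.15 over the 10 members and 0.038 over all genes kept, of which 47.7% had a ratio below 0, against 5 of 10 members. Summed neuron markers also differed, at 769.4 to 1023 CPM in recurrent and 873.1 to 1433 CPM in primary tumours against 535.1 CPM in the culture (of the library total), and their part in these ratios was not tested.

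**Figure D2:**
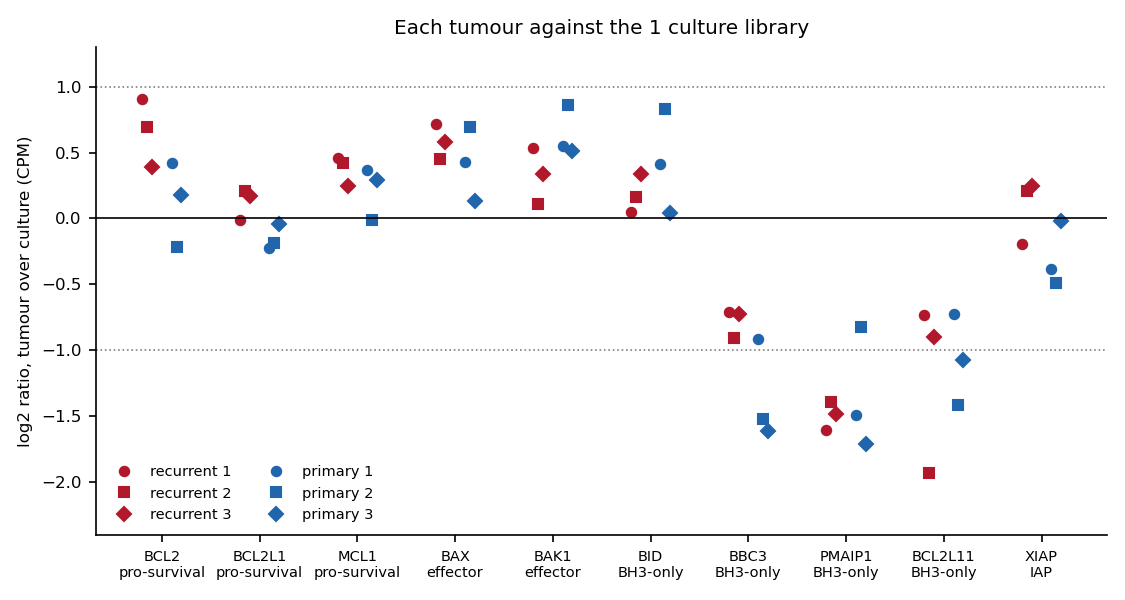
log2 ratio of each tumour's CPM over that of the 1 culture library, by gene and role; red points are recurrent and blue points primary tumours, shapes are replicates, and dotted lines mark 2-fold. All 6 tumours lie below 0 for BBC3, PMAIP1 and BCL2L11, and all 6 lie above 0 for BAX, BAK1 and BID.

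Ratios within a library do not depend on scaling between libraries. The per-length levels of the 4 BH3-only genes summed to 42.0%, 42.3% and 50.2% of those of the 3 pro-survival genes in recurrent tumours and to 51.1%, 84.6% and 42.3% in primary tumours, against 116% in the culture. The 84.6% belonged to primary replicate 2, and all 6 tumours were below the culture. PMAIP1 was the largest part of the BH3-only sum in the culture, at 58.7 CPM per kb against 10.8 (BID), 9.14 (BCL2L11) and 2.15 (BBC3). Of other BH3-only genes, BAD, BIK and BMF were above the culture in the tumours' mean, with log2 ratios of 0.73, 0.92 and 0.59. BIK and BMF rest on few counts, each at most 42 in a tumour, with 43 and 45 in the culture. HRK had 4.09, with 1 count in the culture. BNIP3 and BNIP3L, of the same family, had -0.051 and -0.42. PMAIP1 stood to MCL1, the pro-survival protein that NOXA binds, at 0.275, 0.326 and 0.346 in recurrent tumours and 0.316, 0.656 and 0.287 in primary tumours, against 1.15 in the culture. By contrast, the effectors BAX and BAK1 together came to 13.7% to 17.3% of the pro-survival sum in recurrent tumours and 14.9% to 24.8% in primary tumours, with 14.1% in the culture inside the tumours' range. MCL1 made up 74.5% to 79.1% of the pro-survival sum in recurrent tumours and 75.8% to 80.6% in primary tumours, against 73.6% in the culture.

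The comparison of recurrent with primary tumours asks whether cells that grew back after heating differed in these genes. No member passed edgeR's quasi-likelihood test at an adjusted p under 0.05, with Benjamini-Hochberg adjusted p from 0.530 to 0.965 over 15928 genes and log2 fold changes from -0.30 (BAK1) to 0.56 (BBC3). XIAP, BCL2L1, BCL2 and BBC3 had the positive values furthest from 0, and BAK1 and BID the negative ones. The test called 0 of 10 members and 0.00628% of all genes tested. At an unadjusted p under 0.05 it had 1 of 10 members (XIAP), against 9.28% of all genes. XIAP was higher in recurrent tumours, as were 5.08% of all genes at that level, while 4.20% were lower. DESeq2 also called 0 members, where it called 0.608% of all genes, and had 1 member at an unadjusted p under 0.05, against 8.77% of all genes. With limma-voom 0 members were called and 1 was at an unadjusted p under 0.05, against 8.86% of all genes. The groups did not overlap for BCL2L1 and BBC3, both higher in recurrent tumours, which is 2 of 10 members where 15.4% of all genes had such groups, 7.94% higher and 7.42% lower in recurrent tumours. The median log2 fold change was 0.17 over the members and -0.0065 over all genes tested. In bulk tissue, fewer cells with a transcript and less of it per cell cannot be told apart. Recurrent replicates 2 and 3 have another library name prefix than the other 4 tumours, and what it stands for is not stated. With the prefix as a covariate, the fit leaves recurrent replicate 1 alone against the primary tumours, so no p is given. The log2 fold change was then 0.10 for XIAP, 0.16 for BCL2L1, 0.77 for BCL2 and 0.64 for BBC3.

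Among the pro-survival genes, BCL2L1 (ENSG00000171552.14, chromosome 20, 31664452 to 31723989, minus strand, GRCh38) had 46.7, 54.0 and 52.6 CPM in recurrent tumours, against 40.0, 40.6 and 45.2 CPM in primary tumours (TMM-scaled over the 6 tumours, as in all values of this comparison). Every recurrent tumour was above every primary tumour, though by little between recurrent replicate 1 and primary replicate 3, and the log2 fold change was 0.29 (95% interval -0.011 to 0.58, edgeR adjusted p = 0.554). MCL1 (ENSG00000143384.14, chromosome 1, 150574551 to 150579738, minus strand) had 277, 268 and 237 CPM in recurrent tumours, against 258, 195 and 244 CPM in primary tumours. Its groups overlapped, with primary replicate 2 the lowest of the 6, and the log2 fold change was 0.17 (95% interval -0.16 to 0.49), or 0.052 without that tumour. BCL2 (ENSG00000171791.14, chromosome 18, 63123346 to 63320128, minus strand) had 4.99, 4.26 and 3.45 CPM in recurrent tumours, against 3.54, 2.24 and 2.97 CPM in primary tumours. The groups overlapped between recurrent replicate 3 and primary replicate 1, and the log2 fold change was 0.53 with a wide 95% interval from -0.17 to 1.22. BCL2 rests on 53 to 121 counts per tumour. Per length, MCL1 exceeded BCL2 by 105, 119 and 130 times in recurrent tumours and by 138, 166 and 156 times in primary tumours, ratios that did not overlap between the groups and were not tested. All other within-library ratios computed here overlapped between the groups. How often such ratios separate over other gene pairs was not computed.

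Of the effectors, BAX (ENSG00000087088.21, chromosome 19, 48954815 to 48961798, plus strand) had 13.6, 11.2 and 12.2 CPM in recurrent tumours, against 11.0, 13.0 and 8.93 CPM in primary tumours. The groups overlapped, and the log2 fold change of 0.17 (95% interval -0.30 to 0.64) turned to -0.13 with the graft percentage as a covariate. BAK1 (ENSG00000030110.14, chromosome 6, 33572547 to 33580293, minus strand) had 11.98, 8.87 and 10.3 CPM in recurrent tumours, against 12.03, 14.7 and 11.7 CPM in primary tumours. Recurrent replicate 1 fell within the primary range, and the log2 fold change was -0.30 (95% interval -0.76 to 0.16). The ratio of BAX to BCL2 per length, often read as an index of the readiness to die, was 14.9, 14.5 and 19.5 in recurrent tumours and 17.1, 32.0 and 16.5 in primary tumours, with 17.1 in the culture. These ratios overlapped, and primary replicate 2 alone was far above the rest.

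Among the BH3-only genes, BBC3 (ENSG00000105327.18, chromosome 19, 47220822 to 47232766, minus strand) had 2.42, 2.09 and 2.36 CPM in recurrent tumours, against 2.08, 1.35 and 1.28 CPM in primary tumours. The lowest recurrent tumour barely exceeded the highest primary tumour: they held 55 and 54 counts, with exact Poisson 95% intervals of 41.43 to 71.59 and 40.57 to 70.46. The log2 fold change was 0.56 (95% interval -0.27 to 1.39). PMAIP1 (ENSG00000141682.12, chromosome 18, 59899948 to 59904306, plus strand) had 37.7, 43.4 and 40.6 CPM in recurrent tumours, against 40.3, 63.4 and 34.6 CPM in primary tumours. The primary range enclosed the recurrent one through primary replicate 2, and the log2 fold change of -0.18 (95% interval -0.64 to 0.28) turned to 0.11 without that tumour. BID (ENSG00000015475.19, chromosome 22, 17734138 to 17774770, minus strand) had 27.9, 30.0 and 33.8 CPM in recurrent tumours, against 35.6, 46.8 and 27.4 CPM in primary tumours. Here too primary replicate 2 was the highest, the groups overlapped, and the log2 fold change of -0.26 (95% interval -0.69 to 0.18) shrank to -0.042 without it.

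BCL2L11 (ENSG00000153094.25, chromosome 2, 111119378 to 111168447, plus strand) had 28.8, 12.5 and 25.4 CPM in recurrent tumours, against 28.7, 17.6 and 22.4 CPM in primary tumours. Recurrent replicate 2 and primary replicate 2 were the lowest tumours, and the groups overlapped. The log2 fold change was -0.048 (95% interval -0.69 to 0.59), and turned to 0.23 without recurrent replicate 2 and to 0.14 without primary replicate 1. XIAP (ENSG00000101966.14, chromosome X, 123859724 to 123913979, plus strand) had 65.1, 85.5 and 87.6 CPM in recurrent tumours, against 56.9, 52.1 and 73.0 CPM in primary tumours. Recurrent replicate 1 fell below primary replicate 3, so the groups overlapped, and the log2 fold change was 0.39 (95% interval 0.015 to 0.76, unadjusted p = 0.0431, edgeR adjusted p = 0.530). The interval is for XIAP alone, without adjustment over genes. Its log2 fold change was 0.72 with the graft percentage as a covariate (unadjusted p = 0.00748) and 0.23 with the trend of each library on transcript length removed (unadjusted p = 0.124). It ran from 0.29 to 0.54 when 1 tumour was left out, with edgeR adjusted p from 0.305 to 0.845. The unadjusted p was also above 0.05 with the library total (0.0619) and without recurrent replicate 2, recurrent replicate 3, primary replicate 1 or primary replicate 2 (0.116 to 0.160).

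**Figure D3:**
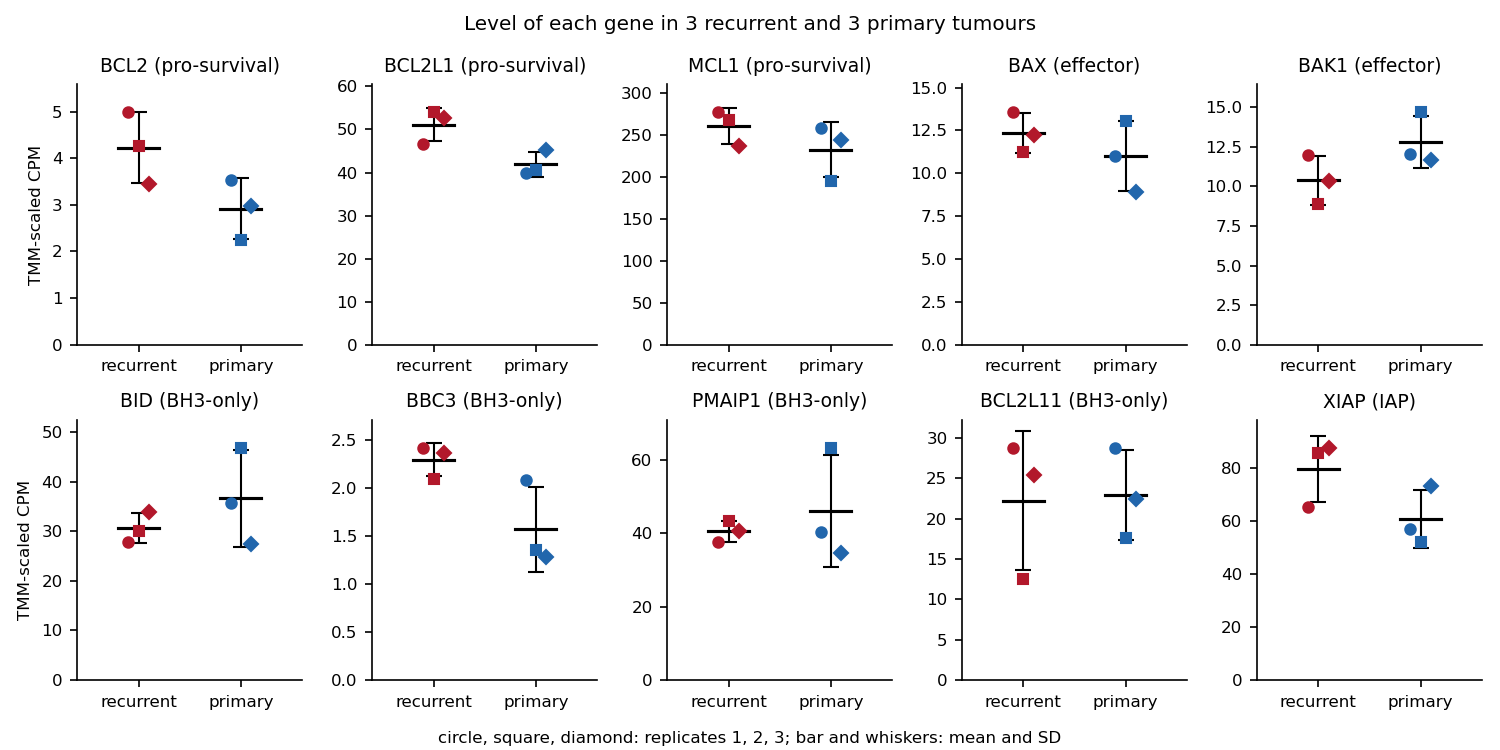
TMM-scaled CPM of each gene (axes from 0) in 3 recurrent (red, left) and 3 primary tumours (blue, right); shapes are replicates, and bars with whiskers are the mean and SD. Groups are separate for BCL2L1 and BBC3, and primary replicate 2 (blue square) is the highest tumour for PMAIP1, BID and BAK1.

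**Figure D4:**
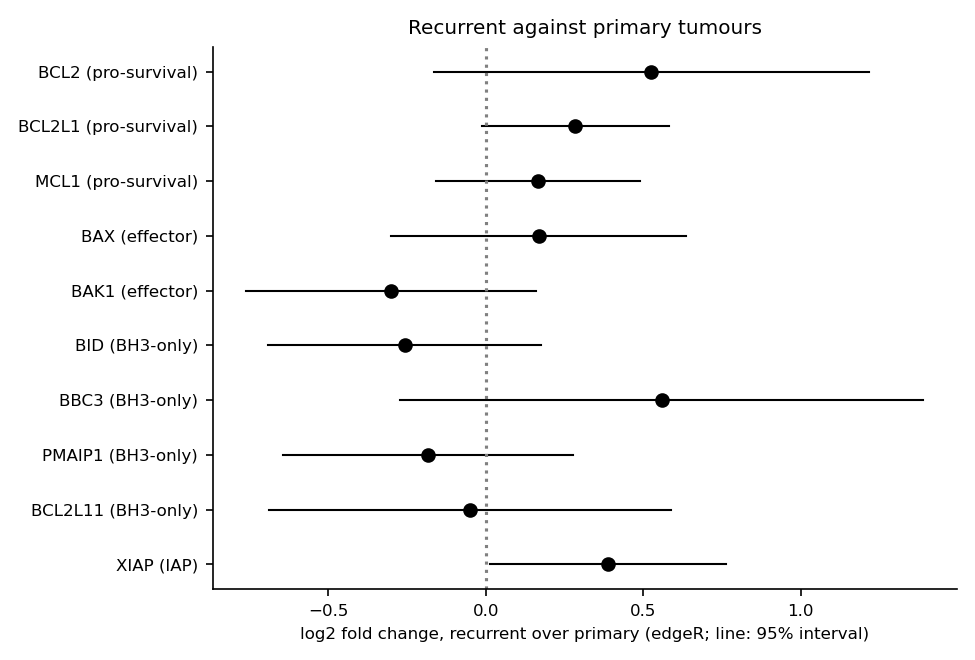
log2 fold change of recurrent over primary tumours by edgeR, with 95% intervals not adjusted over genes, from BCL2 at the top to XIAP at the bottom. All intervals but that of XIAP include 0, and no gene passed after adjustment.

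Primary replicate 2 lay outside the range of the other 5 tumours for several members. The share of all genes for which it did so, and the same share for each other tumour, were not computed. The members alone thus do not show that this library is unusual. It was above all 5 others for PMAIP1 (63.4 against 34.6 to 43.4 CPM), BID (46.8 against 27.4 to 35.6 CPM) and BAK1 (14.7 against 8.87 to 12.03 CPM), whose longest annotated transcripts have 1948, 2495 and 2212 bases. It was below all 5 others for MCL1 (195 against 237 to 277 CPM), BCL2 (2.24 against 2.97 to 4.99 CPM) and XIAP (52.1 against 56.9 to 87.6 CPM), with transcripts of 3932, 7461 and 8591 bases. Across the 10 members, its log2 deviation from the mean of the others and transcript length had a Spearman rho of -0.515, a description over genes of 1 library. BBC3, with 1838 bases, did not follow the pattern, at 1.35 CPM against 1.28 to 2.42 CPM.

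The control brains show how much signal these genes give in libraries without a labelled tumour. Control replicates 1 and 2, the libraries with the lowest totals, held few counts: BCL2, BAX, BAK1 and BBC3 had 0 counts in both, and BID had 0 and 1. The others had 1 and 10 counts (BCL2L1), 4 and 27 (MCL1), 5 and 12 (PMAIP1), 2 and 1 (BCL2L11) and 6 and 21 (XIAP). The highest of these was 1.70% of the lowest tumour count of its gene, for XIAP, without scaling for depth. Control replicate 3 held more, from 2 counts for BBC3 and 16 for BCL2 up to 235 for XIAP and 751 for MCL1, or 6.25% to 30.2% of the lowest tumour count of the gene. With 0 counts, up to 3 counts remain possible, which is 22.95 and 9.105 CPM in control replicates 1 and 2 on the TMM scale of the tumours and controls. The tumour means of BCL2 (1.94 CPM), BAX (6.35), BAK1 (6.31) and BBC3 (1.05) on this scale were below both limits, and those of BID (18.3) and BCL2L11 (12.3) were below that of control replicate 1. For BCL2, BAX, BAK1 and BBC3 a level like that of the tumours could thus go undetected in both controls. For BID this held in control replicate 1 alone. BCL2L11 was not at 0 there: its 2 counts stood for 15.3 CPM on this scale, above its tumour mean.

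**Figure D5:**
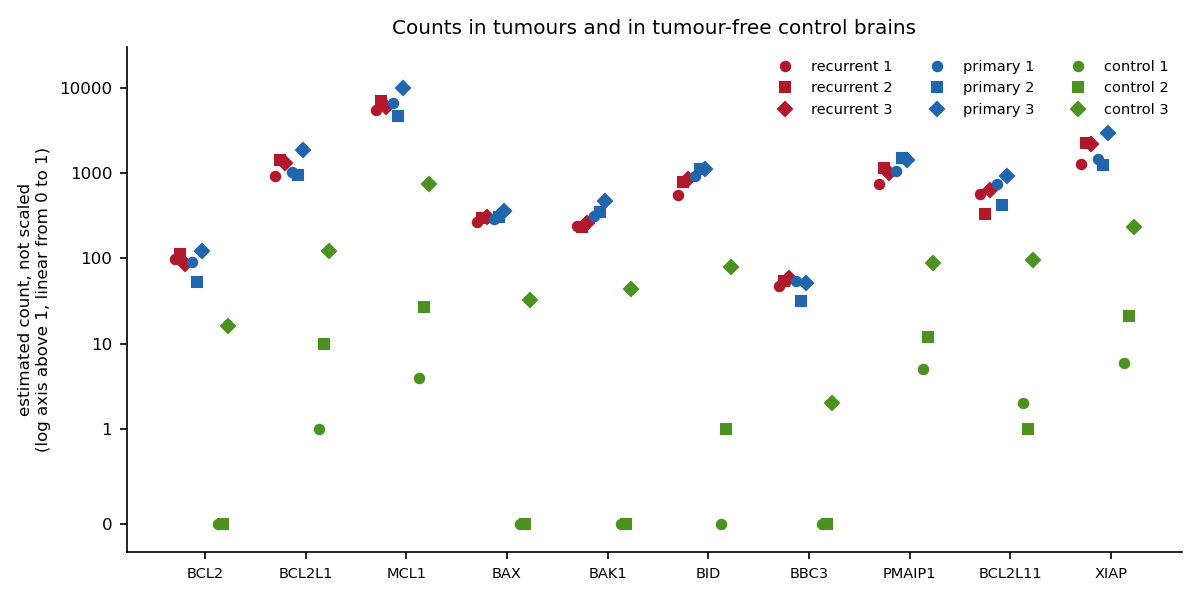
Estimated counts, not scaled for depth, in recurrent tumours (red), primary tumours (blue) and controls (green) on an axis that is logarithmic above 1. BCL2, BAX, BAK1 and BBC3 are at 0 in control replicates 1 and 2, while control replicate 3 lies above them and below the lowest tumour for each of the 10 genes.

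Scaled for depth, 0 of 10 members passed edgeR between the 6 tumours and the 3 controls (adjusted p from 0.324 to 0.962 over 16389 genes), with 0 at an unadjusted p under 0.05 and 0 called by DESeq2. The log2 fold changes were positive for 8 members and negative for PMAIP1 (-0.30) and XIAP (-0.41). On the TMM scale PMAIP1 had 38.25 and 36.42 CPM in control replicates 1 and 2, against a tumour mean of 23.6 CPM. XIAP had 45.9 and 63.7 CPM there, against a tumour mean of 38.0 CPM. These control values rest on few counts. Over all genes, 0.531% were called higher and 5.15% lower in tumours. Without control replicate 3, edgeR called MCL1 (log2 fold change 1.16, adjusted p = 0.0457) and BID (3.13, adjusted p = 0.0273) higher in tumours, 2 of 10 members where 10.4% of all 17223 genes were called higher. These values rest on 4 and 27 counts of MCL1 and on 0 and 1 counts of BID in the controls left, and the fitted value of BID is no bound. The values move with the scaling: the median log2 fold change of all genes was 0.411 with TMM and 1.77 with the library total, and that of the members 0.477 and 1.90. With structural small RNAs left out of the library total, the 10 members summed to 564.2 to 582.3 CPM in recurrent tumours, 489.5 to 551.9 in primary tumours and 516.6 in control replicate 3, against 179.7 and 413 in control replicates 1 and 2, and 608 in the culture. The members' share in control replicate 3 thus lay within the tumours' range. Its BAX to BCL2 ratio per length was 11.3, below the tumours' range of 14.5 to 32.0, and rests on 33 and 16 counts.

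The members' pathway was described by 5 lists of other apoptosis genes, drawn from textbook knowledge. Of 57 entries 50 were tested between recurrent and primary tumours, and edgeR called 0 of them (smallest adjusted p = 0.454), with 8 of 50 at an unadjusted p under 0.05, against 9.28% of all genes, and 9 of 50 with groups that did not overlap, against 15.4%. In recurrent tumours 5 of 9 other BCL2 family genes were higher (median log2 fold change 0.014), 2 of 8 IAPs and antagonists (-0.14), 5 of 10 caspase and apoptosome genes (0.019), 7 of 11 death receptor genes (0.095) and 5 of 12 regulators of BH3 proteins and MCL1 (-0.079), where 50.9% of all genes were lower. The 3 genes with the smallest p in each list are named here. BOK, a BAX-like protein, had a log2 fold change of 0.74 (SE 0.36), and the hypoxia-induced mitophagy receptors BNIP3L and BNIP3 had -0.46 (SE 0.20) and -0.57 (SE 0.36). HTRA2, a protease that antagonises XIAP once released from mitochondria, had 15.9, 14.4 and 14.3 CPM in recurrent tumours against 16.6, 26.5 and 25.3 CPM in primary tumours (-0.62, SE 0.20), with BIRC6 at 0.25 (SE 0.15) and BIRC3 at 0.27 (SE 0.24). APAF1, the scaffold of the apoptosome, stood at 0.49 (SE 0.19), cytochrome c (CYCS) at -0.34 (SE 0.18) and the executioner CASP6 at -0.34 (SE 0.20).

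CFLAR, encoding the caspase-8 inhibitor c-FLIP, had 46.3, 61.2 and 48.6 CPM in recurrent tumours against 38.2, 36.3 and 38.4 CPM in primary tumours (log2 fold change 0.47, SE 0.15). The TRAIL receptor TNFRSF10A stood at 0.67 (SE 0.23) and the initiator CASP10 at 1.20 (SE 0.60). DDIT3, the stress factor CHOP that induces BIM, had 10.4, 17.6 and 14.3 CPM in recurrent tumours against 20.6, 31.5 and 19.1 CPM in primary tumours (-0.74, SE 0.25). The MCL1 ubiquitin ligase HUWE1 stood at 0.51 (SE 0.22) and the deubiquitinase USP9X at 0.41 (SE 0.19). Among these named genes the groups did not overlap for BOK, HTRA2, CASP6, CFLAR, TNFRSF10A, DDIT3 and HUWE1. Against the culture, the 2-fold rule took 4 of 53 list genes as lower and 4 as higher in tumours, against 10.0% and 5.79% of all genes. The genes farthest from it in each list were BIRC3 (log2 ratio 3.41), TRIB3 (-2.17), FAS (1.15), CASP2 (0.54) and BCL2A1, with at most 27 counts in a tumour and 1 in the culture.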

How the data were processed

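RNA was sequenced from 3 recurrent tumours, 3 primary tumours, 3 controls and 1 culture. The authors deposited 1 table of estimated counts per gene, not scaled between libraries. STAR, Salmon 1.10.3, DESeq2 and GRCh38 are named in the submitters' processing notes. Libraries were strand-specific and depleted of ribosomal RNA, per the labels' protocols. The sources do not state which graft or host reads entered the counts, or the annotation release. Salmon divides reads shared by similar transcripts by a model. Groups come from the treatment label, and replicate numbers follow record order and pair nothing.

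Estimated counts were rounded. Of the 62754 gene IDs, 58261 matched GENCODE 29 (GRCh38), the source of coordinates, lengths and sequences. Tests used edgeR 4.0.16 in R 4.3.3 (TMM, default low-count filter, two-sided quasi-likelihood test without covariates), and p-values were adjusted by Benjamini-Hochberg over all genes tested, with a threshold of 0.05. The standard error is the log2 fold change over the square root of F. All 10 members passed each filter. The culture was compared by ratio only. Alternatives used DESeq2 1.42.0 and limma 3.58.1, other scalings and filters, covariates, and leaving out each library. The fits were checked on simulated data with 100 genes changed 2-fold and 100 changed 4-fold. Between recurrent and primary tumours 45% of the 2-fold and 81% of the 4-fold changes were recovered, with 14 false calls. Between tumours and controls 3% and 50% were recovered, with 0 false calls, so members changed 2-fold could go uncalled. The text names the 10 members, the 3 genes of each list with the smallest edgeR p, and the one farthest from the culture. BAD, BIK, BMF and HRK were named after their values were seen. Results of a further list are not reported here. Members and lists were chosen with earlier results of these data known. Intervals and floors (3 counts) cover counting error only. The proteins' own sequences were not used here.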

Additional observations from a re-analysis of the deposited data

Results flagged for a closer look

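PMAIP1, encoding NOXA, had 63.4 CPM in primary replicate 2, while the other 5 tumours lay between 34.6 and 43.4 CPM. The gap to the nearest tumour was 0.697 of the whole range of the 6 tumours, which passes the Dixon limit for 6 samples. Of the 10 members tested in this way it was the 1 to pass, and chance alone passes about 1 in 20. The same tumour was also the highest for BID and BAK1, and its RNA integrity number was 7.8, against 8.1 to 8.9 in the others, whose part in the PMAIP1 value was not tested. Without that tumour the log2 fold change of PMAIP1 between recurrent and primary tumours was 0.11, against -0.18 with it.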

How the results depend on the processing

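No paired analysis was possible because the labels give library names and no replicate numbers shared between groups. Between recurrent and primary tumours, 0 members passed in every alternative with a test. The count over all genes, 1 as reported, was 105 with DESeq2, 0 with limma-voom, 28 without a low-count filter, 2 with the length trend removed, 0 with the labels' graft percentage added, and 0 with the length trend removed and primary replicate 2 left out, a setting chosen after seeing the data. It ran from 0 to 32 when 1 tumour was left out. Of the members' 160 log2 fold changes under alternatives with a test, 155 kept their sign and stayed uncalled, though 30 of these moved by over 1.5 times, and 5 changed sign. With the name prefix, for which no p is given, 9 of 10 kept their sign, though 7 of these moved by over 1.5 times. BCL2L1 (0.16) and XIAP (0.10) moved beyond the spread between replicates. Those that changed sign were BAX with the graft percentage (-0.13), BCL2L11 with the prefix (0.33), without recurrent replicate 2 (0.23) and without primary replicate 1 (0.14), and PMAIP1 without primary replicate 2 (0.11, or 0.16 with the length trend also removed). With 1 tumour left out, PMAIP1 ran from -0.35 to 0.11 and BCL2L11 from -0.28 to 0.23.

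Between tumours and controls, 931 genes passed as reported, 1975 with DESeq2, 262 with the library total and 575 without small RNA genes, and 484 to 3030 when 1 library was left out. Members called ran from 0 to 2 there, the 2 being without control replicate 3. BCL2 turned to -0.16 with DESeq2 and -0.21 without small RNA genes, and ran from -0.21 (without control replicate 2; -0.13 without control replicate 1) to 9.15 without control replicate 3, where the controls left are at 0 and the fitted value is no bound. BCL2L11 turned to -0.16 with DESeq2, -0.12 with RLE and -0.057 without small RNA genes, and ran from -0.34 to 0.91 when 1 library was left out, also negative without recurrent replicate 1 (-0.041) or primary replicate 1 (-0.019). With the library total PMAIP1 turned from -0.30 to 1.999 and XIAP from -0.41 to 1.501. Against the culture, 3053 genes met the rule, 1598 with the stricter filter and 1546 with 1 CPM added, and 2 to 3 members. The causes were not tested. Depth limits BBC3 and BCL2 most, at 32 to 121 counts per tumour.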

Other observations

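The following list genes, all lower in the tumours' mean than in the culture, were chosen after their values were seen. Their lists as a whole did not lie lower. The median log2 ratio was -0.029 over 12 regulators of BH3 proteins and MCL1, of which the 2-fold rule took 1 as lower and 0 as higher. It was 0.090 over 11 death receptor genes, of which the rule took 2 as lower and 1 as higher. TP73 (0.71) and FAS (1.15) went the other way. ATF4, the transcription factor that induces CHOP, averaged 228 ± 26.6 CPM in recurrent and 264 ± 4.36 CPM in primary tumours (SD, n = 3 each), against 438 CPM in the culture, with a log2 ratio of the tumours' mean over the culture of -0.82. TRIB3, a pseudokinase induced by CHOP, averaged 17.9 ± 4.06 CPM in recurrent and 18.7 ± 0.715 CPM in primary tumours (SD, n = 3 each), against 83.0 CPM in the culture. DDIT3 had a ratio of -0.98, so that DDIT3 and ATF4 fell short of the 2-fold rule. TNFRSF10B, another TRAIL receptor, averaged 75.6 ± 10.3 CPM in recurrent and 70.0 ± 6.79 CPM in primary tumours (SD, n = 3 each), against 155 CPM in the culture (log2 ratio -1.08). Means were TMM-scaled over the tumours alone, and the culture values and ratios over tumours and culture together. The culture is 1 library, so these ratios have no test.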
